A study of Gallus gallus with 28 samples.

Results

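Among the genes that set the BTK knockout line B7.10 apart from its parent DT40, 35 moved in the DT40 direction in both derived lines. These lines, B41-13 and B46-5, were made from the knockout, and some genes moved past the DT40 level in them. DT40 is a chicken B-cell lymphoma line with endogenous BTK. B7.10 is the line in which BTK was disrupted, B41-13 is B7.10 given human BTK, and B46-5 is B7.10 given human BTK without kinase activity, so all lines but DT40 lack chicken BTK and each is represented by 1 line. Of the 28 Affymetrix arrays, B41-13 and B46-5 have 4 each, all from fetal calf serum batch 1, while B7.10 and DT40 have 10 each, spread over serum batches 1 to 3. Cells were stimulated through the receptor for 2 h (batch 1 only) or 6 h, with M4, an antibody to chicken IgM, or left unstimulated for 24 h or 6 h. RNA from 10 repeats of an experiment was pooled for every array, so a test measures the spread between pools, and the number of arrays limits its precision.

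The 35 genes were chosen from measured values. For each of 13009 genes with 1 symbol, D is the mean log2 difference DT40 minus B7.10 over the 6 matched pairs of serum batches 2 and 3, so a positive D means a lower level in the knockout. An absolute D of at least 1 with 1 sign in all 6 pairs was found for 231 genes, which is 1.78% of those measured. The share is the change of a line from B7.10 in serum batch 1, averaged over 4 conditions and divided by D. A share of 0 means the knockout level and a share of 1 means a change as large as D. Genes with a share above 0.5 in both lines numbered 38, and 3 of these (IL13RA1, CYBB and CD44) were left out by name. Another 58 genes passed in B41-13 alone, 24 in B46-5 alone and 111 in neither. D, the shares and every level compared between lines below are therefore descriptions of the selection, and no test was made of them.

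BTK is a Tec-family tyrosine kinase of the B-cell receptor pathway. After receptor ligation it is recruited to the membrane, phosphorylated by SYK and LYN, and activates PLC gamma 2, which raises calcium and feeds the ERK, NFAT and NF-kB branches. In people, loss of BTK stops B-cell development. BTK without catalytic activity still has its lipid-binding and adaptor domains, which are known to hold other proteins. The roles named for the genes below are those known from mammals.

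The chicken BTK probe set read 5.97, 5.88, 5.90 and 5.61 log2 in B41-13 and 5.22, 5.29, 5.36 and 5.13 in B46-5, each in the order stimulated 2 h, stimulated 6 h, unstimulated 24 h and unstimulated 6 h, which is kept for both lines throughout. It read 4.70 to 5.30 (median 4.98) in B7.10 and 9.34 to 10.61 (median 9.87) in DT40. The knockout and both derived lines thus lay far below DT40 on every array. B41-13 lay above every B7.10 array, with a mean difference of 0.71 ± 0.20 log2 (SD, n = 4 conditions), and whether the chicken probe set reads the human transgene was not tested. In all 4 lines, 11 of 11 measured B-cell markers lay above a background level of 3.98 log2 (the 40th percentile of probe-set means). In DT40, 7 of 11 T-cell, 8 of 11 myeloid, 3 of 4 erythroid, 5 of 13 fibroblast and 2 of 6 epithelial markers lay above it as well. Passing this level thus does not by itself set the cell type. The log2 of the summed B-cell marker level in serum batch 1 ran from 13.96 to 14.10 in B41-13 and from 13.65 to 13.73 in B46-5. It ran from 13.45 to 13.74 in B7.10 and from 13.34 to 13.43 in DT40. The brightest markers weigh most in this sum. The median marker, over all arrays of a line, gave the opposite order, with 8.88 log2 in B41-13, 8.91 in B46-5, 9.04 in B7.10 and 9.43 in DT40. The sum thus does not rank the lines by B-cell content, and its part in the results below was not tested. The description or source name of 5 arrays went against the title, which was used here. These were the stimulated 6 h arrays of B7.10 in serum batches 2 and 3, of B41-13 and of B46-5, and the unstimulated 24 h array of B46-5. Array medians lay between 4.37 and 4.50 log2. In lines of cells measured in bulk, fewer cells that express a gene and less RNA per cell cannot be told apart.

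Of the 35 genes, 21 were higher and 14 lower in the knockout than in DT40. The absolute D had a median of 1.45 and ran from 1.02 to 2.48. The median share was 0.976 in B41-13 and 0.944 in B46-5. A share above 1, a move beyond the size of D, was found for 14 genes in B41-13 and 17 in B46-5, of which 5 were in both (ALDH1A3, BTBD11, CPNE8, C1orf21 and CCSER1). The DT40 arrays of serum batch 1 entered neither D nor the share. DT40 minus B7.10 there had 1 sign in all 4 conditions for 35 of 35 genes, against 31.1% of all genes. The same held, with the sign of D, for 58 of 58 genes regained in B41-13 alone. It also held for 23 of 24 regained in B46-5 alone and 110 of 111 in neither, so it is not particular to the 35. For the 35 genes the median ratio of that batch 1 difference to D was 1.22. It was 1.08 for genes regained in B41-13 alone, 1.15 in B46-5 alone and 1.07 in neither. The batch 1 difference shares its B7.10 arrays with the share. With it in place of D, the median share was 0.869 in B41-13 and 0.866 in B46-5, and 12 genes in each line were above 1. Over all 10 arrays each, B7.10 and DT40 did not overlap for 32 of the 35 genes, against 3.66% of all genes, and the exceptions were KCNA2, KCNMB1 and GPR183. In serum batch 1 the 4 arrays of B41-13 did not overlap those of B7.10 for 32 genes (11.6% of all genes), and those of B46-5 for 31 (11.5%). These arrays chose the genes, so nothing is read from those counts.

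**Figure D1:**
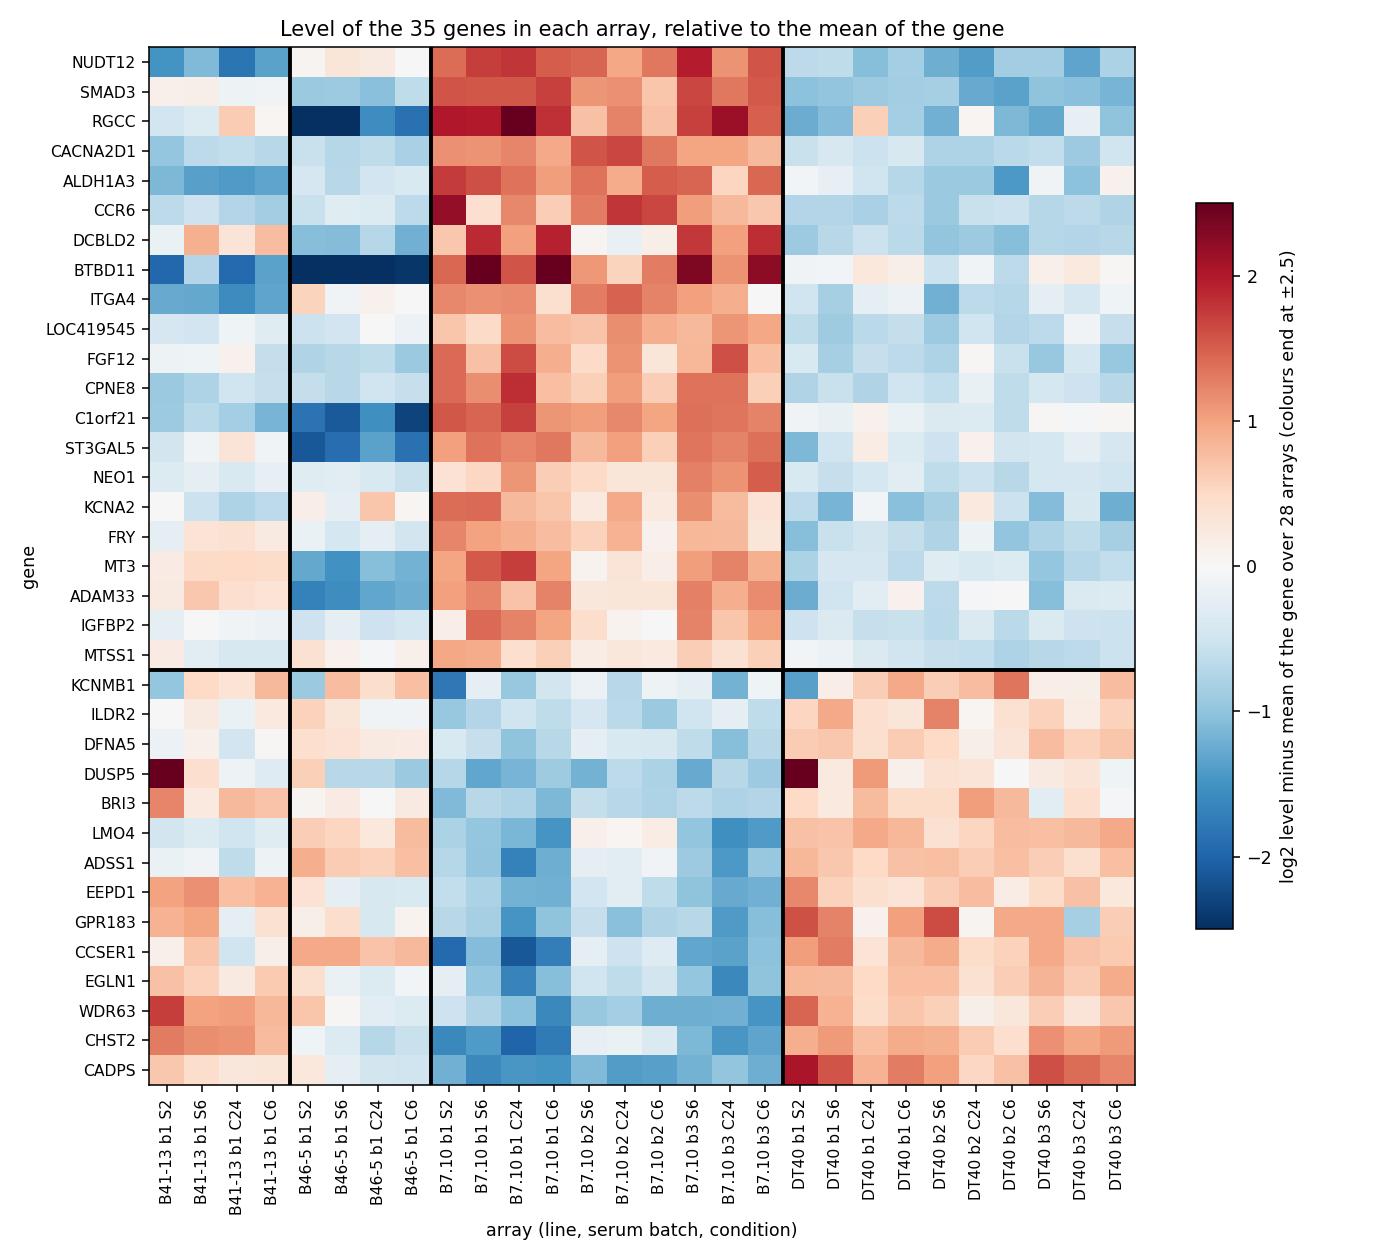
Log2 level of the 35 genes (rows, ordered by D) on the 28 arrays (columns, named by line, serum batch b1 to b3 and condition: S2 and S6 stimulated 2 h and 6 h, C24 and C6 unstimulated 24 h and 6 h), relative to the mean of each gene. The 21 genes above the horizontal line are red in B7.10 and blue in DT40, and the 14 below it the reverse, with B41-13 and B46-5 mostly on the DT40 side.

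The genes are described by role, starting with regulators of transcription and signalling. SMAD3, which carries TGF-beta signals to the nucleus, had a D of -2.35 and shares of 0.674 in B41-13 and 1.06 in B46-5. Its level was 5.04, 5.06, 4.78 and 4.82 log2 in B41-13 and 3.98, 4.01, 3.87 and 4.27 in B46-5, against 5.60 to 6.62 (median 6.45) in B7.10 and 3.58 to 4.08 (median 3.90) in DT40. Every array of B46-5 and DT40 was below every one of B41-13, and B41-13 was below B7.10. The DT40 mean lies near background, so differences from it are lower bounds.

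RGCC, a regulator of cell cycle and of complement responses, had a D of -2.13. It was at 6.64, 6.78, 7.77 and 7.19 log2 in B41-13 and 4.51, 4.34, 5.57 and 5.26 in B46-5, against 7.85 to 9.63 (median 8.89) in B7.10 and 5.84 to 7.72 (median 6.08) in DT40. In B41-13, 3 arrays lay within the DT40 range and the 24 h array just above it (share 0.991), while all 4 B46-5 arrays were below the lowest DT40 array (share 2.01). BTBD11, an ankyrin-repeat protein, had the largest shares of all 35 genes, at 2.24 in B41-13 and 2.90 in B46-5. Its levels were 4.92, 6.14, 4.94 and 5.54 log2 in B41-13 and 4.24, 4.39, 4.33 and 4.45 in B46-5, against 7.45 to 9.45 (median 8.40) in B7.10 and 6.23 to 7.15 (median 6.87) in DT40. Both lines thus lay below the lowest array of DT40.

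DUSP5, a nuclear phosphatase that inactivates ERK, and LMO4, a LIM-only transcription cofactor, were lower in the knockout. DUSP5 read 9.90, 5.65, 5.09 and 4.90 log2 in B41-13 and 5.82, 4.53, 4.53 and 4.30 in B46-5, against 3.92 to 4.57 (median 4.33) in B7.10 and 5.12 to 9.27 (median 5.51) in DT40. The 2 h stimulated arrays of B41-13 and DT40 stood far above all others, and its share of 1.97 in B41-13 has an SD of 1.98 over the 4 conditions. Without the 2 h arrays its shares were 1.01 in B41-13 and 0.318 in B46-5, so its membership depends on them. LMO4 had levels of 7.12, 7.25, 7.08 and 7.28 log2 in B41-13 and 8.20, 8.12, 7.85 and 8.37 in B46-5, against 6.05 to 7.77 (median 6.60) in B7.10 and 7.97 to 8.54 (median 8.34) in DT40. In B46-5, 3 arrays lay within the DT40 range, and B41-13 lay below all DT40 arrays (shares 0.536 in B41-13 and 1.27 in B46-5).

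Receptors and surface proteins went both ways. CCR6, the chemokine receptor that guides B cells to CCL20, was higher in the knockout (D -1.90). It was at 3.07, 3.20, 2.99 and 2.86 log2 in B41-13 and 3.15, 3.41, 3.38 and 3.07 in B46-5, against 4.15 to 5.91 (median 4.83) in B7.10 and 2.78 to 3.19 (median 3.00) in DT40. All arrays but those of B7.10 lay near background. GPR183, the oxysterol receptor that positions B cells in follicles, was lower in the knockout (D 1.49), with 6.28, 6.41, 5.17 and 5.80 log2 in B41-13 and 5.55, 5.85, 5.02 and 5.51 in B46-5, against 3.94 to 4.84 (median 4.49) in B7.10 and 4.59 to 7.05 (median 6.36) in DT40. B41-13 and B46-5 lay above B7.10 on every array, and DT40 overlapped B7.10 through its 24 h array of serum batch 3.

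ITGA4, the alpha-4 integrin subunit that binds VCAM1, had a D of -1.54 and shares of 1.52 in B41-13 and 0.542 in B46-5. It read 2.70, 2.67, 2.38 and 2.63 log2 in B41-13 and 4.52, 3.87, 4.06 and 3.96 in B46-5, against 3.94 to 5.43 (median 5.12) in B7.10 and 2.76 to 3.84 (median 3.49) in DT40. B46-5 lay above all DT40 arrays and overlapped B7.10. B41-13 and DT40 lay below background on every array, so no order between them and no exact share for B41-13 can be read. DCBLD2, a neuropilin-like membrane protein (D -1.63), had 9.13, 10.20, 9.62 and 10.07 log2 in B41-13 and 8.23, 8.23, 8.60 and 8.11 in B46-5, against 9.13 to 11.22 (median 10.33) in B7.10 and 8.23 to 8.78 (median 8.58) in DT40. B46-5 was within or just below the DT40 range, and B41-13 lay above it and within the B7.10 range. NEO1, the netrin receptor neogenin, had a D of -1.37 with shares of 0.684 in B41-13 and 0.749 in B46-5. ILDR2, an immunoglobulin-like domain protein, had a D of 1.07 with shares of 0.729 in B41-13 and 0.828 in B46-5.

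Subunits and modulators of ion channels and a vesicle protein follow. CACNA2D1, an auxiliary calcium channel subunit, was higher in the knockout (D -1.93) and read 3.20, 3.52, 3.56 and 3.48 log2 in B41-13 and 3.61, 3.46, 3.54 and 3.35 in B46-5, against 4.99 to 5.84 (median 5.30) in B7.10 and 3.26 to 3.77 (median 3.58) in DT40. B41-13 and B46-5 were at the DT40 level, near background. CADPS, which primes dense-core vesicles for exocytosis, had the largest D of the genes lower in the knockout (2.29). It was at 7.27, 7.03, 6.88 and 6.90 log2 in B41-13 and 6.85, 6.37, 6.13 and 6.09 in B46-5, against 4.97 to 5.60 (median 5.30) in B7.10 and 7.11 to 8.62 (median 7.84) in DT40. B46-5 stood between the knockout and DT40, and B41-13 reached the DT40 range with 1 array (shares 0.816 in B41-13 and 0.527 in B46-5). This rests on the brightest probe set: 4 others above background had a D of 1.10 to 3.23 and shares of 0.314 to 0.473 in B46-5, under the limit. A further one, at a mean of 6.38 log2 the brightest of the others, had a D of -0.08, so it showed almost no difference between the knockout and DT40.

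KCNMB1, a regulatory subunit of the calcium-activated potassium channel, was lower in the knockout (D 1.06) with shares of 0.979 in B41-13 and 1.06 in B46-5. Its levels were 7.40, 8.87, 8.71 and 9.18 log2 in B41-13 and 7.43, 9.14, 8.80 and 9.11 in B46-5, against 6.59 to 8.25 (median 8.01) in B7.10 and 7.01 to 9.71 (median 8.97) in DT40. The 2 h stimulated array was the lowest of each line, so the ranges of all lines overlapped. KCNA2, a voltage-gated potassium channel, was higher in the knockout (D -1.27, shares 1.25 in B41-13 and 0.722 in B46-5), and so was FGF12, an intracellular modulator of sodium channels (D -1.46, shares 0.931 in B41-13 and 1.32 in B46-5).

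Several genes encode enzymes. NUDT12, a hydrolase of NADH and NAD caps, had the largest absolute D among the brightest probe sets (D -2.48, that is 5.57-fold higher in the knockout). It read 5.00, 5.39, 4.66 and 5.15 log2 in B41-13 and 6.56, 6.79, 6.72 and 6.49 in B46-5, against 7.45 to 8.46 (median 7.97) in B7.10 and 5.08 to 5.85 (median 5.63) in DT40. B46-5 stood between the knockout and DT40, and B41-13 lay within or below the DT40 range. ALDH1A3, which makes retinoic acid, was at 3.32, 3.09, 3.04 and 3.13 log2 in B41-13 and 4.03, 3.76, 3.98 and 4.07 in B46-5, against 4.99 to 6.20 (median 5.85) in B7.10 and 3.01 to 4.56 (median 3.85) in DT40. Every B7.10 array lay above all arrays of the other lines (D -1.92), whose means were near background.

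A pair of members act on carbohydrate chains. ST3GAL5, the GM3 ganglioside synthase, was higher in the knockout (D -1.38), with 8.56, 8.94, 9.35 and 8.95 log2 in B41-13 and 6.91, 7.12, 7.68 and 7.17 in B46-5, against 9.62 to 10.40 (median 10.26) in B7.10 and 7.90 to 9.21 (median 8.61) in DT40. In B41-13, 3 arrays lay within the DT40 range, and all of B46-5 lay below it. CHST2, which sulfates N-acetylglucosamine, was lower in the knockout (D 1.62), with 9.26, 9.11, 9.08 and 8.75 log2 in B41-13 and 7.84, 7.62, 7.25 and 7.41 in B46-5, against 5.96 to 7.79 (median 6.60) in B7.10 and 8.38 to 9.11 (median 8.87) in DT40. Here B41-13 lay within or just above the DT40 range, and B46-5 lay below it and overlapped the upper end of B7.10.

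Of the other enzymes, ADSS1, an adenylosuccinate synthase of the purine nucleotide cycle, had a D of 1.29 and shares of 0.695 in B41-13 and 1.45 in B46-5. EGLN1, the prolyl hydroxylase that marks HIF for degradation, had a D of 1.55 and shares of 0.982 in B41-13 and 0.602 in B46-5. It was at 10.07, 9.92, 9.57 and 9.99 log2 in B41-13 and 9.74, 9.18, 9.0 and 9.27 in B46-5, against 7.67 to 9.12 (median 8.38) in B7.10 and 9.71 to 10.27 (median 10.09) in DT40. In B46-5, 1 array lay within the B7.10 range. EEPD1, an endonuclease of stalled replication forks, had a D of 1.32 and shares of 1.43 in B41-13 and 0.599 in B46-5. All 3 were lower in the knockout. ADAM33, a membrane metalloproteinase, was higher there (D -1.12). It read 7.30, 7.74, 7.49 and 7.41 log2 in B41-13 and 5.37, 5.50, 5.77 and 5.84 in B46-5, against 7.36 to 8.33 (median 8.04) in B7.10 and 5.82 to 7.17 (median 6.71) in DT40. B41-13 lay above every DT40 array and mostly within the B7.10 range (share 0.560), and B46-5 lay below DT40 or at its lower edge (share 2.23).

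The remaining genes higher in the knockout included 3 tied to membranes and the cytoskeleton. These were CPNE8, a copine that binds phospholipid with calcium (D -1.45, shares 1.37 in B41-13 and 1.30 in B46-5), MTSS1, a membrane-bending protein (D -1.02, shares 0.920 in B41-13 and 0.568 in B46-5), and FRY, a microtubule-binding scaffold (D -1.27, shares 0.635 in B41-13 and 1.03 in B46-5). For CPNE8, dimmer probe sets above background that also met the rule gave a D of -3.26 and -3.32, larger in size than that of the brightest. MT3, a metallothionein that binds zinc and copper, and IGFBP2, a secreted carrier of insulin-like growth factors, had a D of -1.18 and -1.10. Their shares were 0.758 in B41-13 and 2.18 in B46-5 for MT3 and 0.976 in B41-13 and 1.25 in B46-5 for IGFBP2. MT3 was at 7.16, 7.44, 7.46 and 7.41 log2 in B41-13 and 5.67, 5.44, 5.89 and 5.77 in B46-5, against 7.04 to 8.68 (median 7.94) in B7.10 and 5.99 to 6.64 (median 6.43) in DT40. B41-13 lay within the B7.10 range over all serum batches, and B46-5 below every DT40 array. C1orf21 and LOC419545 have no role given here. C1orf21 (D -1.42) was at 6.55, 6.77, 6.60 and 6.29 log2 in B41-13 and 5.61, 5.36, 5.92 and 5.14 in B46-5, against 8.44 to 9.17 (median 8.74) in B7.10 and 6.82 to 7.55 (median 7.32) in DT40. Both lines lay below every DT40 array. LOC419545 had a D of -1.52 and shares of 0.722 in B41-13 and 0.695 in B46-5.

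The last 4 genes were lower in the knockout. WDR63, an intermediate chain of axonemal dynein, had a D of 1.59 and levels of 7.12, 6.39, 6.43 and 6.22 log2 in B41-13 and 6.08, 5.42, 5.10 and 5.04 in B46-5, against 3.78 to 4.88 (median 4.28) in B7.10 and 5.54 to 6.85 (median 6.00) in DT40. No array of B41-13, B46-5 or DT40 reached down to the B7.10 range. CCSER1 had a D of 1.50 with shares of 1.22 in B41-13 and 1.71 in B46-5. DFNA5, the pore-forming gasdermin E, had a D of 1.07 with shares of 0.511 in B41-13 and 0.904 in B46-5, and BRI3 had a D of 1.11 with shares of 1.50 in B41-13 and 0.944 in B46-5.

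Membership was a matter of degree at its edges. The members with the smallest lower share were DFNA5 (0.511 in B41-13), CADPS (0.527 in B46-5) and DUSP5 (0.533 in B46-5). Just outside stood CAMKK2 (0.492 in B46-5), ENAH (0.470 in B41-13) and CMYA5 (0.462 in B46-5), and SOCS1, at 0.496 in B41-13, is left out by name as well. Leaving out 1 of the 4 conditions from the share took 8 genes under the limit. These were FRY, DUSP5 and CADPS without stimulated 2 h, ITGA4, MTSS1, DFNA5 and CADPS without stimulated 6 h, ITGA4 without unstimulated 24 h, and ADAM33, DFNA5 and LMO4 without unstimulated 6 h. Inside the limit on D were MTSS1 (-1.02), KCNMB1 (1.06) and ILDR2 (1.07), and outside it TMTC4 (-0.98), KLF2 (0.97) and AMPD3 (0.97). Genes with several probe sets were read from the brightest. For 18 members there were 41 further probe sets, of which 36 had the same sign of D and 18 lay near background, and for 6 genes another probe set also met the rule. Others above background did not, among them those of SMAD3 (D -0.29), RGCC (D -0.74) and LMO4 (D 0.34, share -0.007 in B41-13). Nor did any further probe set of ILDR2 (D 0.75, 1.02 and -0.08) or of MTSS1 (D -0.12, -0.93 and -0.105), all above background. For ILDR2 the shares in B41-13 at a D of 0.75 and 1.02 were 0.451 and 0.361. In DT40, 6 members had a mean near background (SMAD3, CACNA2D1, ALDH1A3, CCR6, ITGA4 and FGF12), and in B7.10 none of the 35 did.

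**Figure D2:**
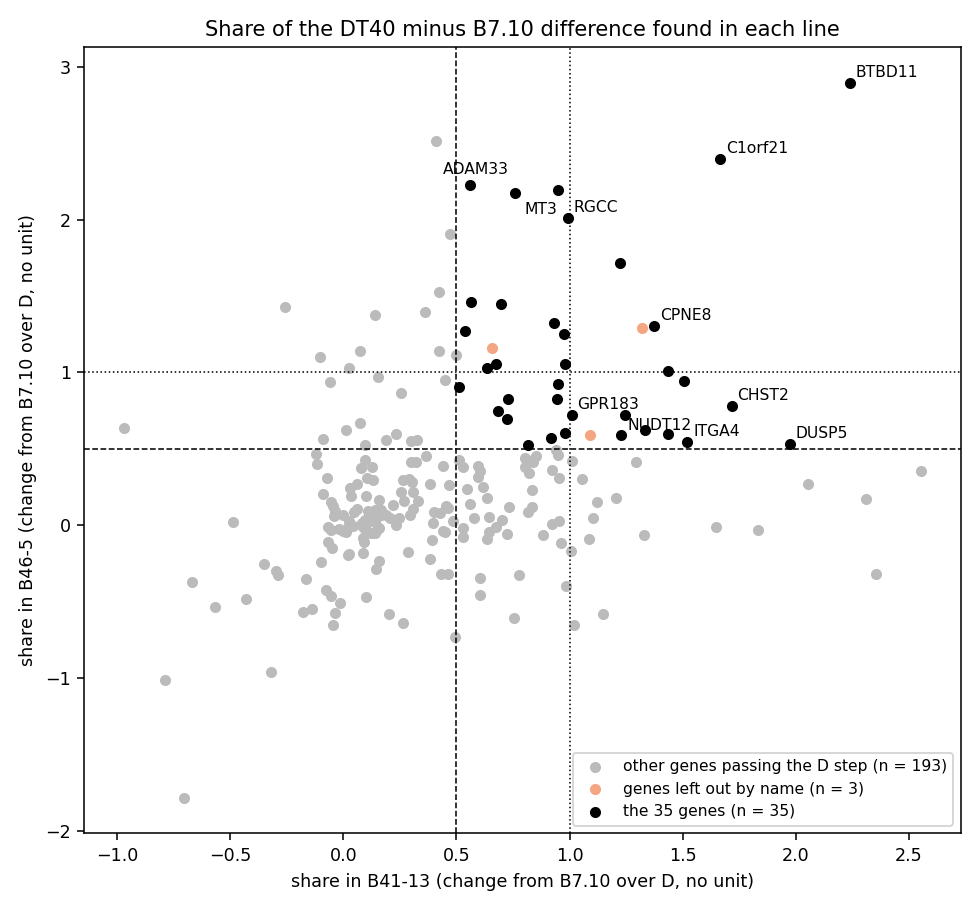
Share of the DT40 minus B7.10 difference in B41-13 (x axis) and B46-5 (y axis) for the 231 genes with an absolute D of at least 1, with dashed lines at 0.5 and dotted lines at 1. The 35 genes (black) fill the upper right corner by definition and spread widely within it, from DUSP5 at 1.97 and 0.533 to ADAM33 at 0.560 and 2.23.

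The derived lines, alike in the rule, differed in how far each gene had moved. B41-13 minus B46-5 had 1 sign in all 4 conditions for 28 of the 35 genes, against 32.5% of all genes, and of these 14 had the larger share in B41-13 and 14 in B46-5. Since a share above 1 can lie past DT40, the larger share is not always the nearer: by the distance from DT40 in serum batch 1, B41-13 was nearer for 20 genes and B46-5 for 15. The 4 arrays of B41-13 and the 4 of B46-5 did not overlap for 21 genes, against 13.9% of all genes. The rule used these arrays, so nothing further is read from the counts. In units of D, the share in B46-5 exceeded that in B41-13 by most for ADAM33, MT3 and ST3GAL5, with B41-13 minus B46-5 of 1.87 ± 0.29, 1.68 ± 0.22 and 1.73 ± 0.08 log2 (SD, n = 4 conditions). The share in B41-13 exceeded that in B46-5 by most for DUSP5, ITGA4 and CHST2, with 1.59 ± 1.68, -1.51 ± 0.29 and 1.52 ± 0.22 log2 (SD, n = 4 conditions). The place of DUSP5 rests on its 2 h arrays, since without them the difference was 0.76 log2, and that of ITGA4 on levels in B41-13 below background, which give no exact size.

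Set against DT40 in serum batch 1, B41-13 differed with 1 sign in all 4 conditions for 26 genes (38.2% of all genes), being short of the DT40 level for 19 and beyond it for 7. B46-5 likewise did so for 26 genes (36% of all genes), 18 short and 8 beyond. The clearest case beyond DT40 in both lines was BTBD11, at -1.56 log2 relative to DT40 in B41-13 and -2.60 in B46-5. C1orf21 followed with -0.82 in B41-13 and -1.86 in B46-5. In serum batch 1 without the 2 h arrays, DT40 minus B7.10 was -2.11 log2 for BTBD11 and -1.51 for C1orf21. For these genes B46-5 thus lay further from DT40 than the knockout did, on the other side. CADPS stayed short in both, at -1.01 log2 relative to DT40 in B41-13 and -1.67 in B46-5.

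Whether the 35 genes also moved with the serum batch was asked within the knockout. Each batch has 1 array per condition, so the conditions stand in as repeats of the batch. The test thus sets the batch difference against its spread over conditions. Serum cannot be told apart from anything else that differed between the batches. Comparing serum batch 2 with batch 3 within B7.10 uses none of the batch 1 arrays. It is orthogonal to the mean over both batches that enters D, yet not independent of the rule. The demand for 1 sign in all 6 pairs used the same arrays. A B7.10 shift towards DT40 in either batch also shrinks D, which raises both shares and favours membership while D stays past its limit. With D from batch 2 alone or from batch 3 alone, 23 of the 35 genes remained in each case. The selection may thus set part of the counts below, which was not tested. The contrast was chosen after seeing the data, because the planned test over all 3 batches shares the B7.10 arrays of batch 1 with the rule. With limma and Benjamini-Hochberg adjustment over 38382 probe sets, 16 of the 35 genes passed an adjusted p of 0.05, against 0.826% of probe sets and 1.49% of genes, with 9 higher (0.537% of probe sets) and 7 lower (0.289%) in batch 2. In 14 of the 16 the level in batch 2 was the closer to DT40, the exceptions being CACNA2D1 and CCR6. The planned test over 3 batches of B7.10, given for completeness, passed for 16 genes, against 1.06% of probe sets. It contains the arrays that chose the genes, so nothing is read from it.

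DCBLD2 had the smallest adjusted p. In B7.10 it averaged 10.91 ± 0.50, 9.32 ± 0.17 and 10.85 ± 0.46 log2 in serum batches 1, 2 and 3 (SD, n = 3 arrays each), and in DT40 8.68 ± 0.09, 8.32 ± 0.08 and 8.59 ± 0.02. The batch 2 minus batch 3 difference in B7.10 was -1.53 ± 0.11 log2 (SE), with a limma adjusted p of 4.65e-07, and the 3 arrays of batch 2 lay below those of the other batches. RGCC (-0.88 ± 0.11, limma adjusted p 0.000342), MT3 (-0.87 ± 0.12, 0.00119), ADAM33 (-0.82 ± 0.12, 0.00103), IGFBP2 (-0.80 ± 0.12, 0.00149), NEO1 (-0.94 ± 0.14, 0.00193) and BTBD11 (-0.93 ± 0.12, 0.000444) were likewise lower in batch 2. All 7 are genes higher in the knockout.

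LMO4 led the genes that were higher in batch 2. It averaged 6.38 ± 0.26, 7.70 ± 0.07 and 6.27 ± 0.28 log2 in B7.10 in serum batches 1, 2 and 3, and 8.42 ± 0.12, 8.14 ± 0.19 and 8.41 ± 0.10 in DT40 (SD, n = 3 arrays each), with a batch 2 minus batch 3 difference in B7.10 of 1.43 ± 0.12 (limma adjusted p 2.75e-06). CHST2 (1.05 ± 0.11, limma adjusted p 6.53e-05), ADSS1 (0.89 ± 0.11, 0.000212), EGLN1 (0.66 ± 0.11, 0.0033), EEPD1 (0.69 ± 0.12, 0.00833), CCSER1 (0.86 ± 0.16, 0.0134) and DFNA5 (0.46 ± 0.09, 0.0254) were also higher in batch 2. All of these are genes lower in the knockout. CACNA2D1 (0.59 ± 0.09, limma adjusted p 0.00252) and CCR6 (0.73 ± 0.15, 0.0262), higher in the knockout, rose further in batch 2. Single B7.10 arrays decided 5 of these calls. Leaving out the 24 h array of batch 3 ended that of EGLN1, and the 24 h array of batch 2 or 3 that of EEPD1. The 6 h or 24 h unstimulated array of batch 2 or the stimulated array of batch 3 ended that of CCSER1. Either unstimulated array of batch 2 or 3 ended that of CCR6, and any batch 2 or 3 array but the unstimulated 6 h one of batch 2 ended that of DFNA5. The calls of the other 11 genes held in every alternative tried.

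**Figure D3:**
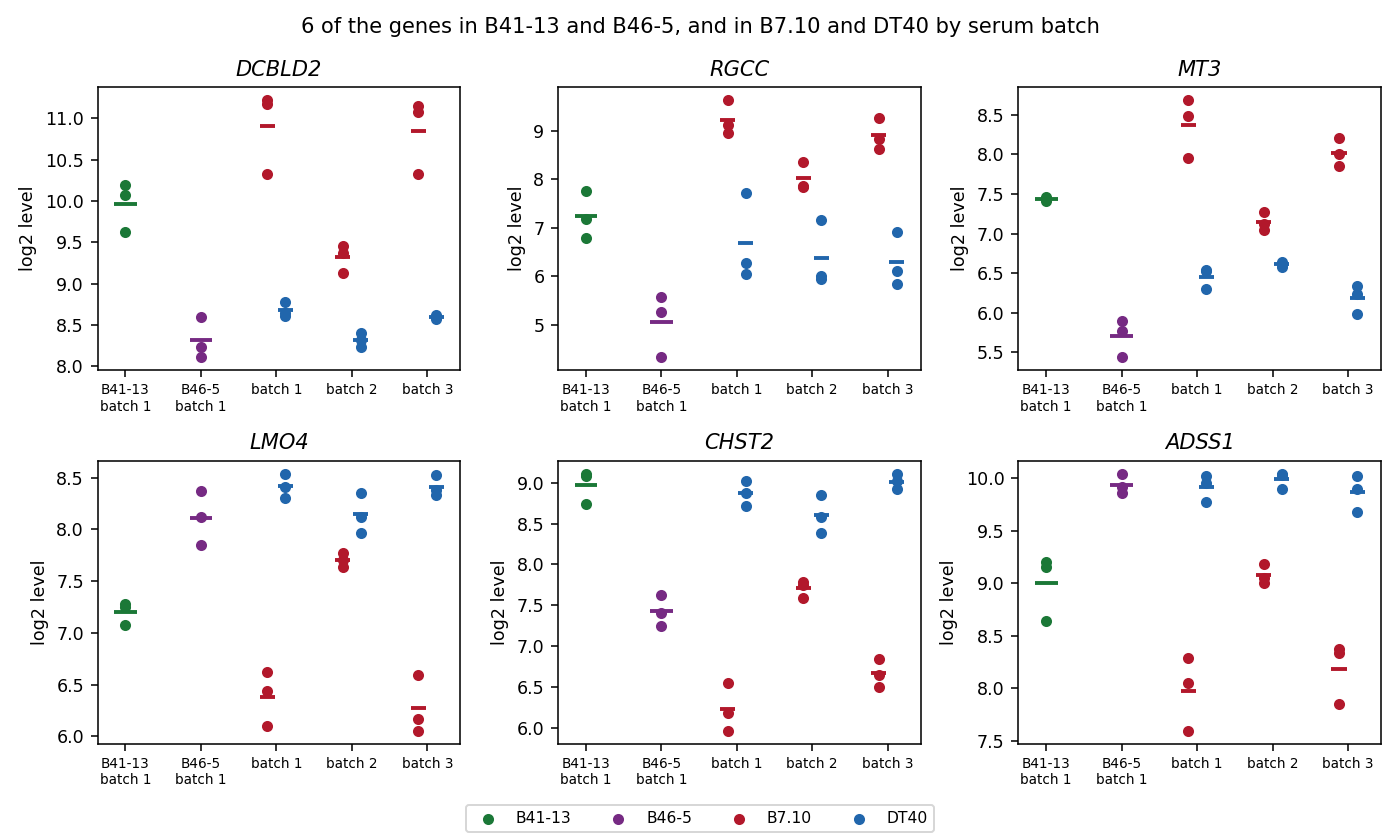
Log2 level of 6 genes in B41-13 and B46-5 (serum batch 1) and in B7.10 and DT40 by serum batch, with points for the arrays at stimulated 6 h, unstimulated 24 h and unstimulated 6 h and bars for their means. The B7.10 mean lies nearer to DT40 in batch 2 than in batches 1 and 3 for all 6 genes, as for LMO4 in B7.10 at 6.38, 7.70 and 6.27 log2 in batches 1, 2 and 3.

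In DT40 the same contrast passed for 6 of the 35 genes, against 2.05% of probe sets. These were BRI3 (0.73 ± 0.09, limma adjusted p 0.000227), CADPS (-0.65 ± 0.12, 0.00567), GPR183 (0.64 ± 0.12, 0.00751), KCNMB1 (0.54 ± 0.11, 0.0153), BTBD11 (-0.56 ± 0.12, 0.0182) and C1orf21 (-0.44 ± 0.11, 0.0488). BTBD11 alone passed in both B7.10 and DT40. The calls of BRI3 and CADPS held in every alternative tried, while each of the other 4 was lost when 1 DT40 array of batch 2 was left out. Without the stimulated array of batch 2, 2 of the 35 genes passed, and 3 passed without the 6 h or 24 h unstimulated array of batch 2 or the 6 h unstimulated array of batch 3. Of 11 B-cell markers, 0 passed in B7.10 (at an adjusted p of 0.05, by limma) and 5 in DT40, all higher in batch 2. The log2 of their summed level ran from 13.50 to 13.63 in batch 2 and from 13.31 to 13.62 in batch 3 of B7.10, and from 13.57 to 13.67 in batch 2 and from 13.10 to 13.31 in batch 3 of DT40. The part of this in the DT40 result was not tested.

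The test of the difference itself, the batch 2 minus batch 3 contrast in B7.10 minus that in DT40, passed for 15 of the 35 genes, against 1.49% of probe sets. Of these, 12 also passed within B7.10, and the others were ITGA4 (1.30 ± 0.23, limma adjusted p 0.0047), FGF12 (-0.77 ± 0.16, 0.016) and BRI3 (-0.70 ± 0.13, 0.00963). The distance between B7.10 and DT40 was smaller in batch 2 than in batch 3 for 12 of the 15. LMO4 (1.70 ± 0.17, limma adjusted p 1.49e-05) and CHST2 (1.46 ± 0.16, 5.07e-05) had the smallest adjusted p. The calls of BRI3, ADSS1, CACNA2D1, FGF12, CCSER1 and IGFBP2 each depended on at least 1 array. For BRI3 this was the unstimulated 6 h array of DT40 in batch 2, for ADSS1 that array or the 24 h array of B7.10 in batch 3. For CACNA2D1 it was the 6 h arrays of DT40 in batches 2 and 3, stimulated or not, and the 24 h array of B7.10 in batch 3. The call of FGF12 was lost in 7 of 24 alternatives, with both lines' batch 2 and 3 arrays among those left out, that of CCSER1 in 12 and that of IGFBP2 in 13. Over all 35 genes, the median absolute DT40 minus B7.10 difference was 1.74 log2 in serum batch 1, 1.14 in batch 2 and 1.67 in batch 3, and batch 2 gave the smallest of the 3 for 24 genes. The arrays of batches 2 and 3 set D, and those of B7.10 in batch 1 entered the shares. The selection may thus set part of these medians and of the 15 calls, which was not tested.

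Set beside the other genes with an absolute D of at least 1, the B7.10 contrast passed for 16 of 35 genes regained in both lines, 12 of 24 regained in B46-5 alone, 10 of 58 in B41-13 alone and 13 of 111 in neither. The difference between these classes was not tested, and the classes rest on shares that a batch shift of B7.10 alters through D. Across the 35 genes, B46-5 minus B41-13 in serum batch 1 and the B7.10 batch 2 minus batch 3 contrast correlated with a Pearson r of 0.454, against -0.05 over the other 196 genes that passed the limit on D and 0.132 over all genes. This is a description across genes that share arrays and is given without a test. The share in B46-5 was the larger for 11 of the 16 genes that passed in B7.10 and for 7 of the other 19, moves past the DT40 level included.

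**Figure D4:**
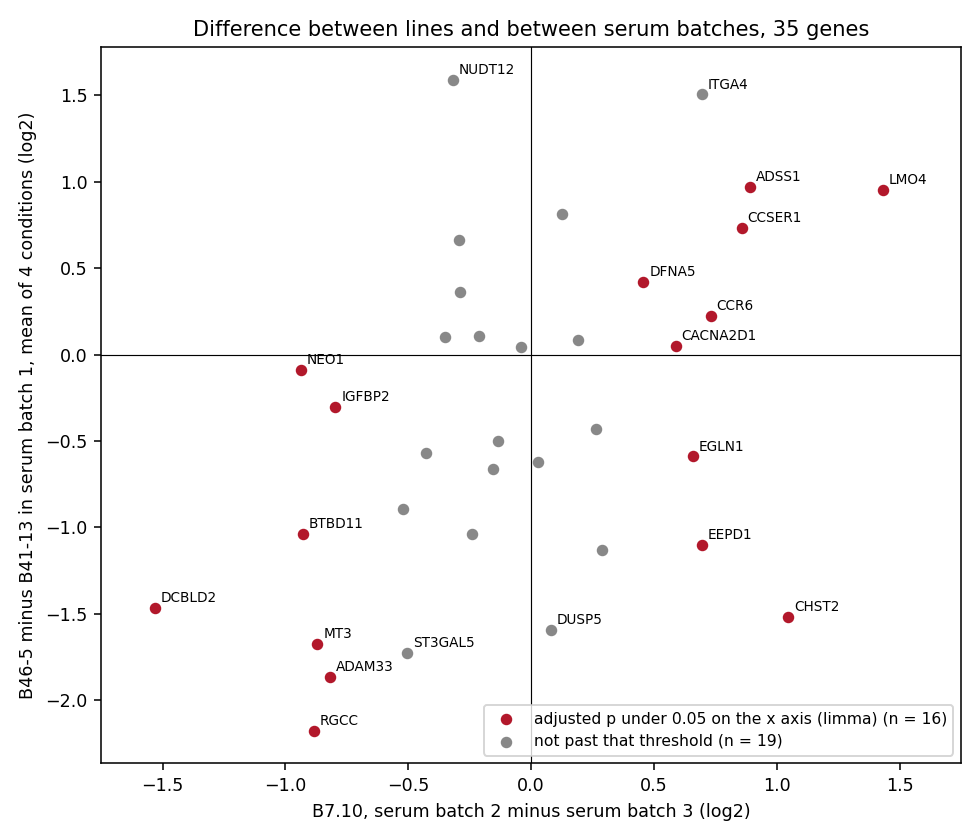
Difference of B7.10 between serum batches 2 and 3 (x axis, log2) and difference of B46-5 from B41-13 in serum batch 1 (y axis, log2, mean of 4 conditions) for the 35 genes, with the 16 genes of limma adjusted p under 0.05 on the x axis in red. DCBLD2, RGCC, MT3, ADAM33 and BTBD11 lie low on both axes and LMO4, ADSS1 and CCSER1 high on both, while CHST2, EEPD1 and EGLN1 oppose.

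Stimulation for 6 h moved none of the 35 genes past the limma test unless arrays were paired by serum batch, when KCNMB1 passed in DT40. In DT40, stimulated minus unstimulated at 6 h passed for 0 of 35 genes, against 0.0443% of probe sets. Without adjustment, 3 of the 35 genes and 2726 of 38382 probe sets had a limma p under 0.05. In B7.10 the same comparison passed for 0 of 35 genes and 0% of probe sets, and unadjusted for 5 genes and 6419 probe sets. The difference between the lines in this response passed for 0 of 35 genes, against 0.00261% of probe sets. Unadjusted, 3 genes and 1630 probe sets were under 0.05. For 4 of 35 genes (CACNA2D1, ITGA4, DUSP5 and BRI3) all 3 batches of B7.10 moved opposite to all 3 of DT40, against 3.24% of all genes. The stimulated 6 h arrays of B7.10 in serum batches 2 and 3 are among those with conflicting labels. With the serum batch as a block, which pairs the arrays of a batch, KCNMB1 fell in DT40 by 0.70 (limma adjusted p 0.0341). This was 1 of 35 genes, against 0.107% of probe sets. The change of KCNMB1 was -0.77, -0.73 and -0.60 log2 in serum batches 1, 2 and 3 of DT40. In B7.10 the block fit passed for 0 of 35 genes while passing for 616 probe sets (1.6%).

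At 2 h the stimulated arrays could be set against those at 6 h over the 4 lines of serum batch 1, where the condition effect is tested against its spread over lines. There is no unstimulated array at 2 h. The length of stimulation thus cannot be told apart from the length of culture. In this comparison 5 of 35 genes passed, against 7.16% of probe sets, with 3 higher (2.08% of probe sets) and 2 lower (5.08%) at 2 h. After cyclic loess between arrays 7 passed, 6 of them higher and 1 lower at 2 h, in place of 3 higher and 2 lower. The shares of probe sets include dim ones, while 33 of the 35 genes lie above the dimmest 40%. Without the dimmest 40%, 8 of 33 genes and 2874 of 23029 probe sets passed. KCNMB1 was lower at 2 h than at 6 h in all 4 lines, with differences of -1.47 log2 in B41-13, -1.71 in B46-5, -1.53 in B7.10 and -1.53 in DT40. The mean was -1.56 ± 0.15 (SE, limma adjusted p 6.57e-06), and the call held in 8 of 8 alternatives.

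DUSP5 was higher at 2 h than at 6 h by 4.25 log2 in B41-13, 1.28 in B46-5, 0.59 in B7.10 and 3.80 in DT40, with a mean of 2.48 ± 0.53 (limma adjusted p 0.00653). The difference was thus larger in B41-13 and DT40 than in B46-5 and B7.10, with 1 array per line and time, and this was not tested. Leaving out DT40 or the arrays with conflicting labels, or trend and robust moderation, ended the call, with a highest limma adjusted p of 0.0885. WDR63 was higher at 2 h in all 4 lines, by 0.73, 0.66, 0.25 and 0.60 log2 in B41-13, B46-5, B7.10 and DT40 (mean 0.56 ± 0.11, limma adjusted p 0.00364). Its call was lost without the arrays with conflicting labels (limma adjusted p 0.164). CADPS (0.40 ± 0.12, limma adjusted p 0.0464) and IGFBP2 (-0.48 ± 0.14, 0.0467) passed as well, but lost their calls when any 1 line was left out. IGFBP2 differed by -0.25 log2 in B41-13, -0.28 in B46-5, -1.24 in B7.10 and -0.16 in DT40.

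**Figure D5:**
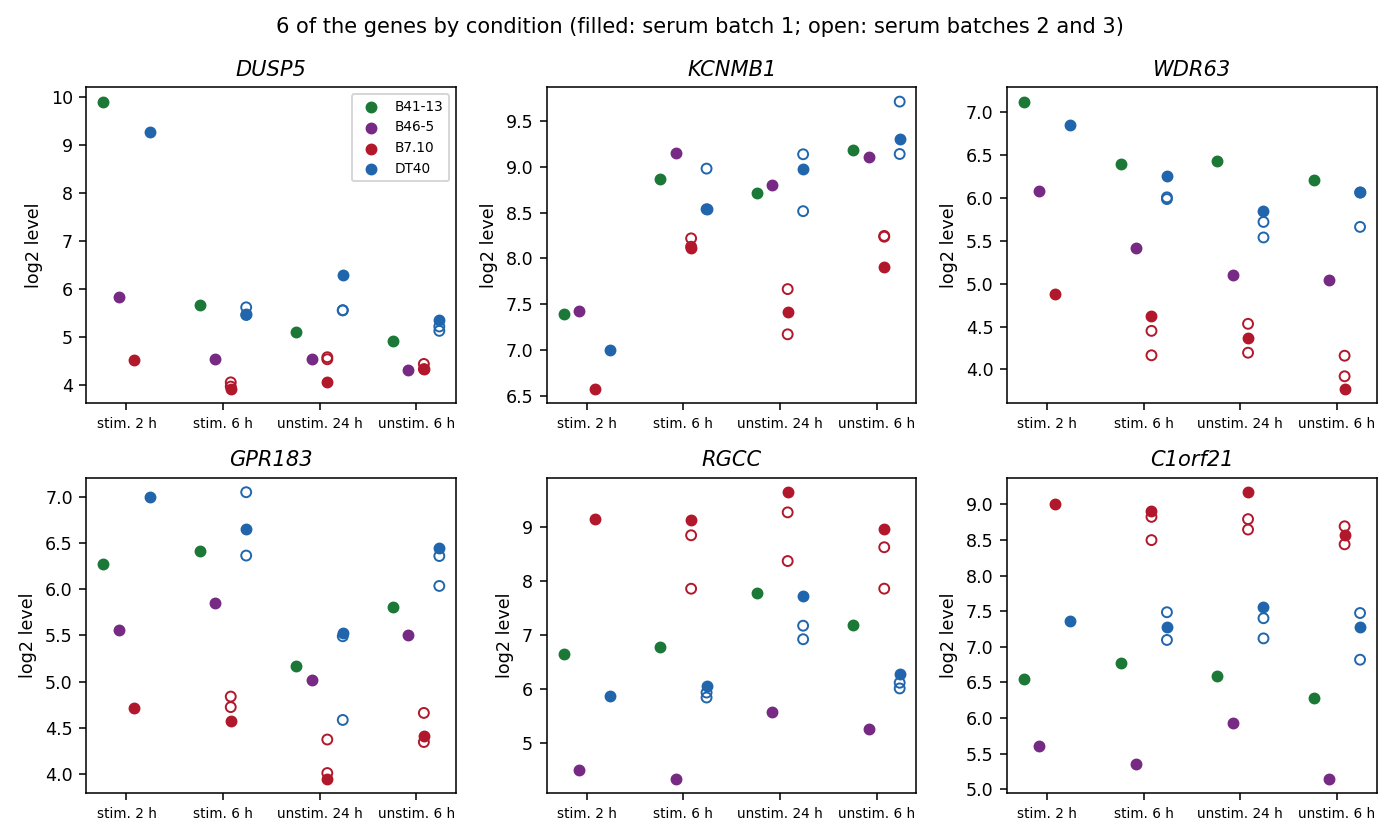
Log2 level of 6 genes by condition and line, with filled points for serum batch 1 and open points for batches 2 and 3 of B7.10 and DT40. At 2 h of stimulation DUSP5 stands at 9.90 log2 in B41-13, 5.82 in B46-5, 4.51 in B7.10 and 9.27 in DT40, and KCNMB1 is lowest at 2 h in every line.

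Culture for 24 h in place of 6 h changed GPR183 in DT40. It stood at 5.52, 5.49 and 4.59 log2 at 24 h in serum batches 1, 2 and 3, against 6.45, 6.36 and 6.04 at 6 h. It fell by 1.08 (SE 0.21, limma adjusted p 0.0222), as 1 of 35 genes against 0.573% of probe sets. Without adjustment, 9 genes and 5058 of 38382 probe sets had a limma p under 0.05. The call of GPR183 was lost in 5 of 13 alternatives. Among them were leaving out the 6 h array of batch 1 or 2 or the 24 h array of batch 3. In B7.10 0 of 35 genes passed, against 0.232% of probe sets, and unadjusted 8 genes and 4935 probe sets. The difference between the lines passed for 0 of 35 genes, against 0.00521% of probe sets. Unadjusted, 6 genes and 2327 probe sets were under 0.05.

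For 3 of 35 genes (CACNA2D1, BTBD11 and WDR63) all 3 batches of B7.10 moved opposite to all 3 of DT40 at 24 h, against 2.34% of all genes. With the serum batch as a block, 3 genes passed in each line, against 1.44% of probe sets in DT40 and 0.703% in B7.10. In DT40, RGCC rose by 1.13 (limma adjusted p 0.0122), GPR183 fell by 1.08 (0.0015) and KCNMB1 fell by 0.51 (0.0499). In B7.10, BTBD11 fell by 0.93 (limma adjusted p 0.0158), FGF12 rose by 0.80 (0.0490) and KCNMB1 fell by 0.71 (0.0143). BTBD11 changed by -0.98, -0.72 and -1.10 log2 in serum batches 1, 2 and 3 of B7.10, against 0.12, 0.57 and 0.21 in DT40.

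Over the 4 lines of serum batch 1, 24 h against 6 h passed for 3 of 35 genes, against 0.941% of probe sets. RGCC was higher at 24 h in all lines, by 0.58 in B41-13, 0.31 in B46-5, 0.69 in B7.10 and 1.44 log2 in DT40 (mean 0.75 ± 0.17, limma adjusted p 0.0441). C1orf21 was higher as well (0.49 ± 0.10, 0.0283), and GPR183 lower (-0.63 ± 0.12, 0.0171), each with 1 direction in all 4 lines. Leaving out DT40 or B7.10, which leaves fewer arrays in the fit, ended all 3 calls. Leaving out B41-13 or B46-5 left 1 call each. The calls of RGCC and C1orf21 were also lost without the arrays with conflicting labels, among them the 24 h array of B46-5. That of RGCC was lost with trend and robust moderation as well. Stimulated against unstimulated at 6 h over the 4 lines passed for 0 of 35 genes, against 0.013% of probe sets. Without adjustment, 8 genes and 5244 of 38382 probe sets had a limma p under 0.05.

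The genes of the pathways around BTK were counted by list. Over all genes, 1.78% had an absolute D of at least 1 with 1 sign and 0.292% were regained in both lines (38 of 13009), so the counts in lists of this size are too small to set a list apart. Of 42 measured genes of B-cell receptor signalling, 3 had an absolute D of at least 1 (BTK, PRKCB and PAG1) and 0 were regained in both lines. Of 27 measured genes of ERK feedback and early response, 3 did (SPRED2, DUSP5 and DUSP6), and DUSP5 alone was regained in both, which its 2 h arrays decide. Over the 4 lines of serum batch 1, 11 genes of this list were higher at 2 h than at 6 h of stimulation and 0 lower, against 2.08% of probe sets higher and 5.08% lower, with a median of 0.32 log2, against a median of -0.01 over all probe sets. Of the NF-kB list 4 of 20 were higher and 0 lower, with a median of 0.14, and of the receptor pathway list 2 of 42 were higher and 3 lower, with a median of -0.03. Of 20 measured genes of NF-kB, 1 had an absolute D of at least 1 and 0 were regained in both. Among 36 measured cytokine receptor and JAK-STAT genes, CCR6 was regained in both besides IL13RA1, and among 20 adhesion genes ITGA4 was besides CD44. In serum batch 2 against batch 3 of B7.10, 5 of the 27 ERK genes passed and all were higher in batch 2, against 0.826% of probe sets passing and 0.537% higher, with SPRY2 at 2.49 ± 0.13 log2 (limma adjusted p 5.43e-09) and DUSP4 at 2.12 ± 0.09 (7.81e-10). Of the 42 receptor pathway genes and of the 20 NF-kB genes 0 passed in B7.10. In DT40 the same contrast passed for 9 of the 42 (7 higher and 2 lower), against 2.05% of probe sets. There 6 of the 27 ERK genes (5 higher and 1 lower) and 1 of the 20 NF-kB genes (higher) passed. The difference between B7.10 and DT40 in this contrast passed for 3 receptor pathway, 8 ERK and 0 NF-kB genes, against 1.49% of probe sets. The difference between lists was not tested.

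Outside the 35, the genes most like their sign-aligned mean over the 28 arrays were NIPSNAP3A (Pearson r 0.935), VSIG10L (-0.926), ATAD2B (-0.922), PLEKHF2 (-0.914) and HS6ST3 (-0.909). Each had the sign of D that its correlation gives but an absolute D under 1, from 0.73 to 0.87. Their shares lay between 0.782 and 1.44 in B41-13 and between 0.829 and 1.43 in B46-5.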

How the data were processed

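RNA of 4 chicken B-cell lines was measured on 28 Affymetrix arrays. The authors deposited log2 values per probe set, made with RMA per the submitters' processing notes, with a version not given in the sources used here. RMA corrects background, gives all arrays 1 distribution and summarises probes, so a shift shared by most genes would not be seen. Of 38535 probe sets, 153 controls were left out. Symbols came from the platform table (27178 probe sets with 1 symbol, 177 with several, 11180 with none), and 34 of the 35 genes were found in a RefSeq gene table, with 0 changed symbols. A gene is represented by its brightest probe set. Samples were grouped by title.

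The 18 arrays of DT40 and B7.10 at unstimulated 6 h, unstimulated 24 h and stimulated 6 h were fitted together as group means with limma 3.58.1 in R 4.3.3, with terms for serum batch within line in the serum comparisons. For serum batch 1, a fit with terms for line and for condition used its 16 arrays. Every adjusted p is limma's, Benjamini-Hochberg adjusted over 38382 probe sets, and calls are made at 0.05. Simulated data were used to test the fits for stimulation in DT40, for 2 h against 6 h and for serum batches within DT40. The other contrasts, among them serum batch 2 against 3 and the differences between lines, were not tested that way, nor was the block. Tables and figures were made with Python 3.11.15, pandas 2.3.3 and matplotlib 3.10.9. The labels describe the replicate number as a shared serum batch, so it pairs the arrays. The main fits for stimulation and for 24 h leave this pairing out. In the alternative, the block is a batch term shared by both lines, so it does not follow a batch shift that differs between them. The median correlation between 2 arrays in their deviation from the group mean was 0.122 within a batch (45 pairs) and -0.06 between batches (90 pairs).

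The members and gene lists were chosen with earlier results of these data known. Values are given for the 12 genes with the largest absolute D, up to 8 called genes per test by adjusted p, or the 2 with the smallest p where none is called, genes at the thresholds, BTK, up to 2 genes each way per list by adjusted p, 5 genes most like the mean, and the 3 largest differences between B41-13 and B46-5 each way. Differences are also printed for called genes beyond the first 8 of a test, and these were chosen after their values were seen. Alternatives were the serum batch as a block, leaving out the 40% dimmest probe sets (of the 35 genes, 2 fall there), cyclic loess, trend and robust moderation, only the arrays compared, leaving out conflicting arrays, both 24 h arrays of serum batch 3 or each array or line. The serum batch 2 against 3 contrasts were added after seeing the data.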

Additional observations from a re-analysis of the deposited data

Results flagged for a closer look

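For 4 genes all 3 batches of B7.10 and all 3 of DT40 moved in opposite directions with 6 h of stimulation, against 3.24% of all genes. The B7.10 minus DT40 difference in the response was 0.27 log2 for CACNA2D1 (means 0.20 in B7.10 and -0.07 in DT40), 1.03 for ITGA4 (0.61 and -0.42), -0.67 for DUSP5 (-0.39 and 0.28) and 0.50 for BRI3 (0.23 and -0.27). For 3 genes this held for 24 h against 6 h, against 2.34% of all genes, with 0.48 for CACNA2D1 (0.26 and -0.22), -1.23 for BTBD11 (-0.93 and 0.30) and 0.64 for WDR63 (0.41 and -0.23). The interaction test with limma passed for none of these 7 differences. The stimulated 6 h arrays of B7.10 in serum batches 2 and 3 have conflicting labels.

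The difference between B7.10 and DT40 in serum batch 2 minus batch 3 passed the limma test for 15 genes. It was positive, with B7.10 relatively higher in batch 2, for CACNA2D1 at 0.65 log2, ITGA4 at 1.30, DFNA5 at 0.82, LMO4 at 1.70, ADSS1 at 0.77, CCSER1 at 0.97, EGLN1 at 0.88 and CHST2 at 1.46. It was negative for RGCC at -0.96, DCBLD2 at -1.25, FGF12 at -0.77, MT3 at -1.30, ADAM33 at -1.18, IGFBP2 at -0.70 and BRI3 at -0.70. ITGA4 lies near background in DT40, with batch means there of 3.10 in batch 2 and 3.70 in batch 3. FGF12 does so too, with DT40 means of 3.69 in batch 2 and 3.35 in batch 3. For BRI3 the movement was in DT40, where batch 2 averaged 7.01 and batch 3 averaged 6.28, against 5.55 and 5.52 in B7.10. The arrays compared also set D, so the selection may set part of the count of 15, which was not tested.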

How the results depend on the processing

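Among the single-gene calls of contrasts with a sign, 0 reversed under any alternative. The tests over 3 serum batches have no sign, and counts were compared by size alone, so neither could be called reversed. Counts are of the 35 genes unless probe sets are named, and the cause of each change was not tested except where arrays or probe sets were left out. With the serum batch as a replicate block, 1 gene and 41 probe sets passed for stimulation at 6 h in DT40, 616 probe sets in B7.10 and 2 for the difference, and for 24 h 3 genes and 554 probe sets in DT40 and 3 genes and 270 probe sets in B7.10. No other call of a gene changed with the block. Without the 5 arrays with conflicting labels, 2 genes and 146 probe sets passed for 24 h in DT40, 25 probe sets for 24 h in B7.10, 1 for the 24 h difference and 0 for the stimulation difference. In serum batch 1 without them, 1 gene and 970 probe sets passed for 2 h against 6 h, 0 probe sets for 6 h stimulation, and 1 gene and 118 probe sets for 24 h. For serum they left 245 probe sets within B7.10, 209 for B7.10 batch 2 against 3 and 365 for the difference. With only the arrays compared, 6 probe sets passed for stimulation in DT40, 0 for the stimulation difference, 0 genes and 29 probe sets for 24 h in DT40, 4 probe sets for 24 h in B7.10, and 1 gene and 376 probe sets for serum within DT40. Without both 24 h arrays of serum batch 3, 333 probe sets passed for stimulation in B7.10, 0 genes and 97 probe sets for 24 h in DT40, 17 probe sets for 24 h in B7.10, 0 for the 24 h difference and 176 for B7.10 batch 2 against 3. After cyclic loess, 1 probe set passed for stimulation in B7.10 and 14 for 6 h stimulation over 4 lines. Trend and robust moderation gave 1 gene for 24 h in B7.10, and leaving out the dimmest 40% gave 8 genes for 2 h against 6 h. That moderation also gave 2 genes higher and 3 lower for 2 h against 6 h, in place of 3 higher and 2 lower. Loess also moved the split of higher and lower probe sets to 1195 and 1399 in place of 797 and 1950 for 2 h against 6 h, 206 and 212 in place of 116 and 245 for 24 h over 4 lines, 52 and 58 in place of 27 and 62 for 24 h in B7.10, and 144 and 146 in place of 206 and 111 for B7.10 batch 2 against 3, and for DT40 batch 2 against 3 that of the genes to 3 and 5 in place of 3 and 3.

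Leaving out 1 array at a time gave 12 to 16 genes (132 to 306 probe sets) for B7.10 batch 2 against 3, 2 to 6 (406 to 925) for DT40, and 10 to 16 (365 to 656) for the difference. It gave 12 to 17 genes (191 to 415 probe sets) for serum within B7.10 and 1 to 5 (297 to 669) within DT40. For 24 h it gave 0 to 1 gene (69 to 1341 probe sets) in DT40, 0 to 3 (9 to 290) in B7.10, the most without the 24 h array of batch 2, and 0 (1 to 2) for the difference. For stimulation at 6 h it gave 0 genes throughout, with 5 to 38 probe sets in DT40, 0 to 74 in B7.10 and 0 to 12 for the difference. Leaving out 1 line gave 3 to 5 genes (1379 to 2159 probe sets) for 2 h against 6 h, 0 (0 to 1) for 6 h stimulation and 0 to 1 (85 to 140) for 24 h. The rule gave 24 shared genes of 26 with the mean of all probe sets, 34 of 35 after loess, 23 of 35 with D from batch 2 alone, 23 of 49 with D from batch 3 alone, and 28 of 34 without conflicting arrays. A share limit of 0.4 gave 49 genes and one of 0.6 gave 25. Signal near background limits differences of 6 genes in DT40.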

Other observations

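The signs of D divided unevenly over the classes. Of the genes regained in both lines 21 of 35 were higher in the knockout, as were 16 of 24 regained in B46-5 alone, while 18 of 58 regained in B41-13 alone and 13 of 111 regained in neither were higher there. D chose these genes and the classes were not compared by a test.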
